A study of Mus musculus with 17 samples.

Results

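The mRNA levels of 10 genes of the NF-κB pathway were followed in mouse macrophages and early osteoclasts with and without a myeloid deletion of Bap1, a deubiquitinase of histone H2A. The genes are a named set, matched by symbol, and each matched 1 of the 41388 genes in the count tables. They were 6 genes of the canonical arm (the subunits Nfkb1, Rela and Rel and the feedback inhibitors Nfkbia, Nfkbie and Tnfaip3) and 4 of the non-canonical arm (the subunits Nfkb2 and Relb, the kinase Map3k14 and its negative regulator Traf3). All 10 passed the filter on low counts in every comparison. The 17 poly(A) RNA-seq libraries came from bone marrow macrophages (BMMs) grown in M-CSF, with 3 Bap1flox and 3 Bap1LysM libraries, and from preosteoclasts (preOCs, labelled as osteoclasts), with 6 Bap1flox and 5 Bap1LysM libraries. The preOCs were BMMs given M-CSF and RANKL at 100 ng/ml for 24 h, and came from 20-week-old male mice. The age of the mice behind the BMM libraries is not given in the sources used here. Every animal carried loxP sites in Bap1. Bap1LysM mice also carried Cre inserted in the lysozyme M gene Lyz2, which is active in macrophages and neutrophils, so deletion follows that gene's expression, while Bap1flox mice had no Cre.

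RANKL binds its receptor RANK on macrophages, and NF-κB is one of the first transcription factors it activates on the way to the osteoclast. In the canonical arm, the IKK complex marks the inhibitors IκBα (Nfkbia) and IκBε (Nfkbie) for destruction, which frees dimers of p50 (from Nfkb1) with RelA or c-Rel. In the non-canonical arm, TRAF3 normally keeps the kinase NIK (Map3k14) scarce by having it degraded. When RANK engages TRAF3, NIK accumulates and p100 (from Nfkb2) is cut to p52, which acts with RelB. The dimers raise the transcription of Nfkbia, Tnfaip3 (which encodes the ubiquitin-editing enzyme A20), Nfkb2 and Relb, so that inhibitors and new subunits follow the signal. Much of this control is exerted on protein, and RNA-seq shows the mRNA alone.

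Library totals ran from 37967542 to 61369441 counts, and the members had at least 369 counts in every library. The share of mitochondrial genes was 0.481% to 1.074% for replicates 1 to 3 but 2.364% to 5.264% for those numbered 4 to 6, so these library sets were also analysed apart. They are told apart by the form of the deposited names, and the labels call neither a batch. For preOCs, Bap1 itself measured 86.9 ± 9.20 CPM (counts scaled to a common library total, SD, n = 6) in Bap1flox against 70.8 ± 12.2 CPM (SD, n = 5) in Bap1LysM, a log2 difference of -0.22 (SE 0.10, edgeR adjusted p = 0.18). Gene counts do not separate reads of the deleted exons. Lyz2, into which Cre was inserted, was at 42.8% of the Bap1flox mean in the BMM library labelled Bap1LysM 1 and at 75.1% in the preOC library labelled Bap1LysM 1, against at most 0.436% in the other Bap1LysM libraries. The study's methods give Bap1LysM mice 1 Cre copy (LysMCre+/-), which leaves 1 Lyz2 allele without Cre. The Lyz2 levels split the Bap1LysM libraries into 2 kinds, and the Cre copies or label of either kind are in doubt. Copy number and a sample mix-up cannot be told apart here. The 2 libraries labelled Bap1LysM 1 are part of every Bap1LysM value below. Member, pathway and marker calls that differed without them are given beside the result. The 10 osteoclast markers rose with RANKL in both genotypes, from a summed 230.5 to 351.6 CPM in BMMs to 5917 to 17563 CPM in preOCs, the lowest being the preOC library labelled Bap1LysM 1. The summed 7 macrophage markers apart from Lyz2 lay at 7448 to 9583 CPM in BMMs and 3926 to 5272 CPM in preOCs.

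Per unit of gene length (RPKM, the CPM per kilobase of gene), Rela and Nfkbia were the most abundant members in BMMs and Nfkbia and Nfkb2 in preOCs. In Bap1flox BMMs, Rela led at 68.3 ± 0.446 RPKM (SD, n = 3), ahead of Nfkbia at 63.0 ± 3.30, Nfkb2 at 36.3 ± 0.765 and Nfkb1 at 30.3 ± 2.53 RPKM, with no overlap between neighbours in this order. Nfkbie at 13.3 ± 1.83 and Relb at 13.0 ± 1.88 RPKM could not be told apart. Map3k14 followed at 8.94 ± 0.270 RPKM. Traf3 at 5.82 ± 0.235, Rel at 4.17 ± 1.84 and Tnfaip3 at 2.73 ± 0.628 RPKM closed the order, and each overlapped the next.

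In Bap1flox preOCs the order was led by Nfkbia at 232.4 ± 36.1 RPKM (SD, n = 6) and Nfkb2 at 114.6 ± 16.4 RPKM, both above every other member in every library. Rela stood at 57.9 ± 3.92 RPKM. From Nfkb1 at 44.7 ± 2.28 through Nfkbie at 33.8 ± 6.95, Relb at 23.3 ± 4.44, Traf3 at 15.2 ± 1.94 and Tnfaip3 at 12.9 ± 2.18 RPKM, each gene overlapped its neighbours. Rel at 6.77 ± 1.37 and Map3k14 at 6.23 ± 0.653 RPKM were last. In Bap1LysM preOCs the same genes led, with Nfkbia at 209.6 ± 37.6 and Nfkb2 at 129.3 ± 22.9 RPKM (SD, n = 5), and Relb at 35.1 ± 6.53 RPKM stood before Nfkbie at 33.7 ± 16.2 RPKM, the pair overlapping.

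**Figure D1:**
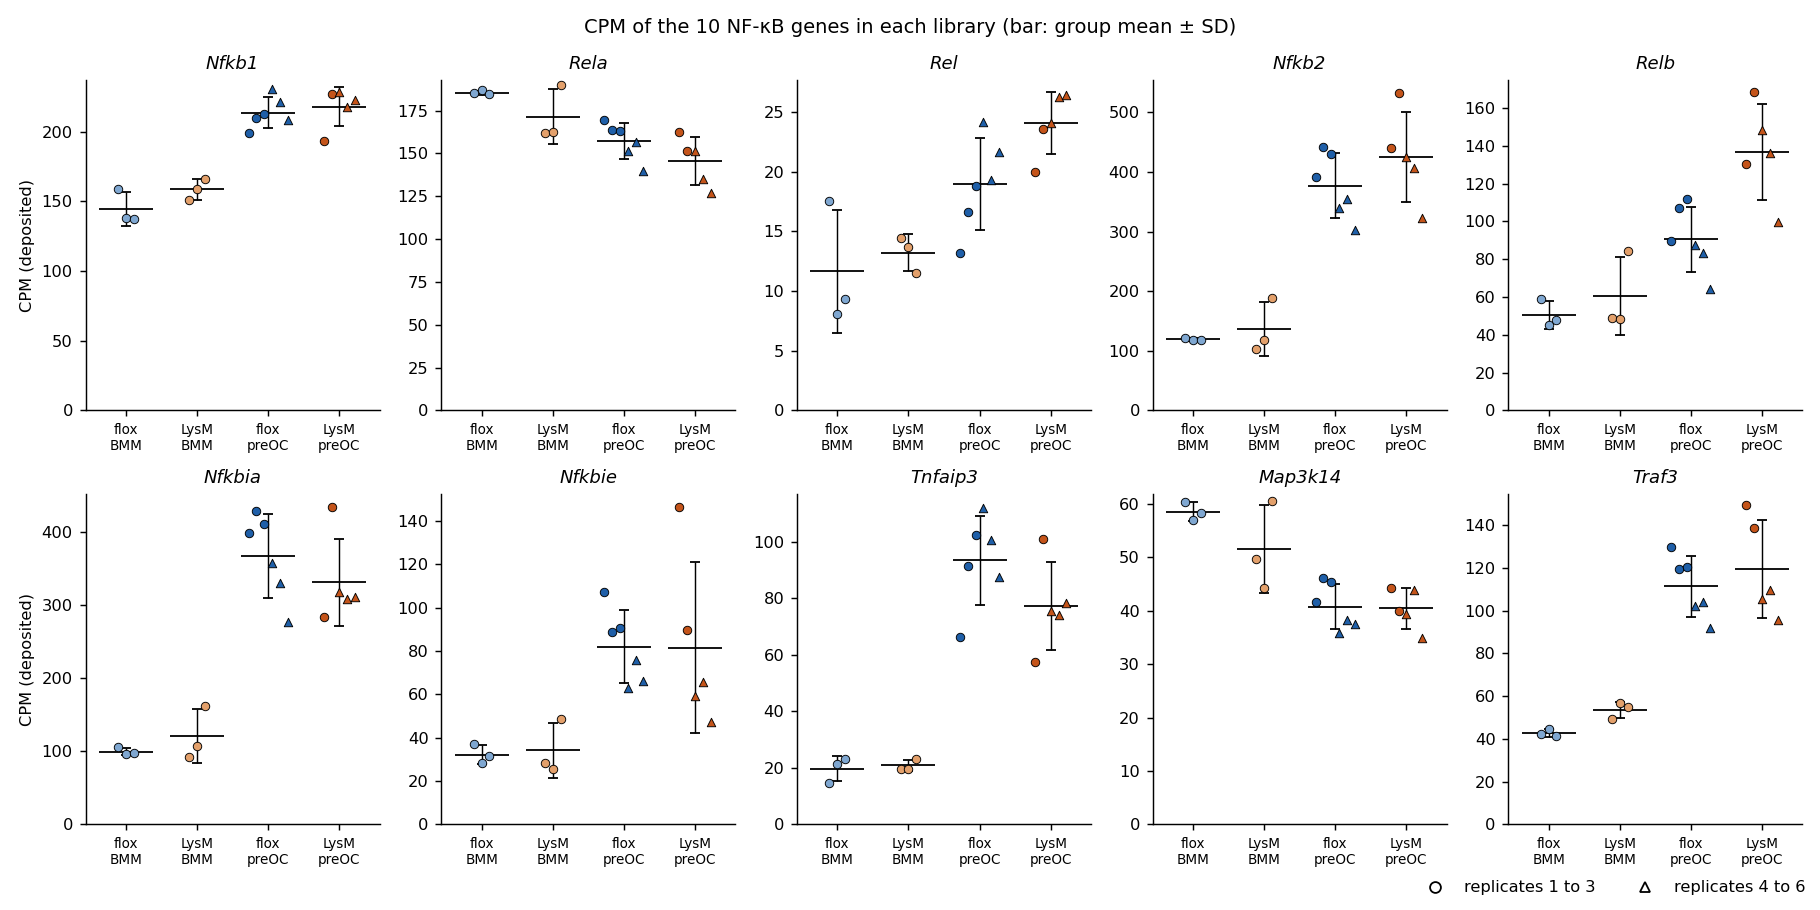
Deposited CPM (y axis, from 0) of the 10 NF-κB genes in the 17 libraries, by genotype and cell stage. Circles are replicates 1 to 3, triangles replicates 4 to 6, and bars the group mean ± SD. Nfkbia and Nfkb2 in every preOC library (at least 276.5 and 303.0 CPM) lie above every BMM library (at most 162.0 and 188.3 CPM), while Rela and Map3k14 lie lower in most preOC libraries.

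The promoters of the members are shown here because most members rose together with RANKL. RefSeq windows of GRCm38.p6 were at hand for 8 members, and the 250 bases before each start were searched on both strands for the 10-base κB consensus. Of 32851 such windows in the table, 7.25% held a match. Of the 11 windows of these 8 members 8 held a match. By gene, 6 had a match in at least 1 window and Rela and Map3k14 had none. Below are the 130 bases before the first listed start, 5′ to 3′ on the strand of the gene, with the letters covered by a match in capitals. Overlapping matches and matches of both strands share 1 stretch.
Nfkb2 (chr19:46304607-46304736, plus strand): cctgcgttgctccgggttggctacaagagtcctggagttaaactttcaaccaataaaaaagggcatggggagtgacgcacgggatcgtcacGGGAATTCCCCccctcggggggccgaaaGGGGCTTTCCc
Nfkbia (chr12:55492648-55492777, minus strand): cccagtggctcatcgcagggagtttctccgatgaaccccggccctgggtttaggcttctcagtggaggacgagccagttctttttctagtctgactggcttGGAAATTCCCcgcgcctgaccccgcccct
Tnfaip3 (chr10:19015411-19015540, minus strand): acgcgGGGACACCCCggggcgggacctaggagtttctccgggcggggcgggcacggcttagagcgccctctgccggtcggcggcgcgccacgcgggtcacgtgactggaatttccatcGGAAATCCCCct
Nfkbie (chr17:45555570-45555699, plus strand): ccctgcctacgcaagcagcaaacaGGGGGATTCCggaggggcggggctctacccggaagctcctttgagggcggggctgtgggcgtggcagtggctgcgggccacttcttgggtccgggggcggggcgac
Traf3 (chr12:111166240-111166369, plus strand): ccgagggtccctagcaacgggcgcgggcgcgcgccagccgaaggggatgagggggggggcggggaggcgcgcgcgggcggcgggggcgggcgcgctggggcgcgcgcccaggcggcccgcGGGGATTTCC
Rel (chr11:23770970-23771099, minus strand): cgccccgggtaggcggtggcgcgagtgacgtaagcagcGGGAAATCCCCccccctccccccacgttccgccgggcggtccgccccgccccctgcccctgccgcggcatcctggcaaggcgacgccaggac
Rela (chr19:5637411-5637540, plus strand): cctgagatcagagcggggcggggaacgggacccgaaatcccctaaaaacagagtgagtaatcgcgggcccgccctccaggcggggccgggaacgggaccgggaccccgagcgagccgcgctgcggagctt
Map3k14 (chr11:103267402-103267531, minus strand): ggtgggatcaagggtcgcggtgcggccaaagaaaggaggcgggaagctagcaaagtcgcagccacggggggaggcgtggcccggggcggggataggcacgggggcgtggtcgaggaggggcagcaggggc

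The stretches lay 2 to 11 and 29 to 39 bases before the start in Nfkb2, 20 to 29 in Nfkbia, 3 to 12 and 116 to 125 in Tnfaip3, 97 to 106 in Nfkbie, 1 to 10 in Traf3 and 82 to 92 in Rel. The other windows of Nfkb2 each held 1 match, 227 to 236 and 216 to 225 bases before their starts, and the other window of Tnfaip3 held none. A match is a description of letters and not a measured binding site. No binding was measured in these libraries.

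The RANKL response was read within replicates 1 to 3, the ones with both stages, in a single edgeR model of the 4 groups (11 libraries). In Bap1flox cells, 7 members were higher and 2 lower in preOCs than in BMMs, and Rel alone was not called. Over all 13637 genes tested, 29.4% were higher and 28.7% lower, and the median log2 change was -0.03, against a median of 1.10 over the members (0.86 in the canonical and 1.10 in the non-canonical arm). The CPM ranges of the stages did not overlap for 9 of the 10 members, where 71.8% of all genes had no overlap, so that count adds little. In Bap1LysM cells the same 7 members were higher and none was called lower, with 21.2% of all genes higher, 17.7% lower and 54.9% without overlap. The median log2 change was 1.26 over the members and 0.01 over all genes.

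Among the inhibitors, Tnfaip3 (minus strand of chromosome 10, 19000910 to 19015657) rose in both genotypes. Its CPM in Bap1flox BMMs 1, 2 and 3 was 14.6, 21.4 and 23.3, and in the preOCs of the same numbers it was 66.4, 91.4 and 102.3. The fitted log2 change was 1.96 (SE 0.23, adjusted p = 9.4e-05), a 3.88-fold rise. In Bap1LysM cells, Tnfaip3 was at 19.5, 19.7 and 23.3 CPM in BMMs and 57.4 and 101.0 CPM in preOCs 1 and 2, a log2 change of 1.81 (SE 0.25, adjusted p = 0.00054). Each preOC library lay above each BMM library, and preOC 1 was the lowest preOC library of these replicates in each genotype.

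Nfkbia (minus strand of chromosome 12, 55489411 to 55492647) rose from 105.3, 95.7 and 97.2 CPM in Bap1flox BMMs to 397.6, 428.0 and 410.2 CPM in preOCs. The log2 change was 1.87 (SE 0.20, adjusted p = 5.3e-05). In Bap1LysM it was at 91.7, 107.8 and 162.0 CPM in BMMs and 283.3 and 434.1 CPM in preOCs, and rose by 1.46 on the log2 scale (SE 0.21, adjusted p = 0.00068). Bap1LysM BMM 3 stood apart as the highest BMM library for this gene, as it did for Nfkb2, Relb and Nfkbie. Nfkbie (plus strand of chromosome 17, 45555716 to 45563169), the slower IκB, rose by 1.39 (SE 0.27, adjusted p = 0.0018) in Bap1flox and by 1.70 (SE 0.30, adjusted p = 0.0019) in Bap1LysM. Its highest value of all libraries was 146.2 CPM in the preOC library labelled Bap1LysM 1, where the other preOC libraries held 47.0 to 107.3 CPM. Over 22 alternatives the change of Nfkbie in Bap1LysM ran from 1.12 to 2.06 and stayed called. Without both libraries labelled Bap1LysM 1, the uncalled difference of its response between genotypes went from 0.31 to -0.27.

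Of the canonical subunits, Nfkb1 rose a little, Rela fell in Bap1flox and Rel was called in neither genotype. Nfkb1 (minus strand of chromosome 3, 135584655 to 135691547) went from 137.2 to 158.7 CPM in Bap1flox BMMs to 199.4 to 213.0 CPM in preOCs 1 to 3, a log2 change of 0.34 (SE 0.08, adjusted p = 0.0064). In Bap1LysM the change was 0.30 (SE 0.09, adjusted p = 0.028). That call was lost under voomWithQualityWeights (adjusted p = 0.098), with no filter on low counts (adjusted p = 0.12), in the fit paired by number (0.33, adjusted p = 0.063) and when any 1 of 3 libraries was left out. Rela (plus strand of chromosome 19, 5637483 to 5648130) went from 184.6 to 186.9 CPM in Bap1flox BMMs to 163.1 to 169.3 CPM in preOCs, a log2 change of -0.34 (SE 0.09, adjusted p = 0.0089).

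The fall of Rela in Bap1flox was called in 21 of 22 alternatives. The exception was scaling by library totals, chosen after seeing the data. TMM factors, which correct for reads taken by a few abundant genes, ran from 0.916 to 0.993 in BMMs and from 0.946 to 1.11 in preOCs. With library totals alone the median log2 change of all genes was 0.15 in Bap1flox and 0.11 in Bap1LysM, the share of calls that were higher in Bap1flox moved from 50.5% to 63.0%, and Rela in Bap1flox was at -0.17 (adjusted p = 0.11). With this scaling Rela and the median gene moved by similar amounts. In Bap1LysM, Rela was at -0.23 (SE 0.10, adjusted p = 0.11) and passed the threshold without both libraries labelled Bap1LysM 1 (-0.36, adjusted p = 0.042). Rel (minus strand of chromosome 11, 23741514 to 23770970), which encodes c-Rel, was at 17.6, 8.07 and 9.36 CPM in Bap1flox BMMs and 13.2, 16.6 and 18.8 CPM in preOCs. BMM 1 was the highest BMM library and the ranges overlapped. The log2 change was 0.29 (SE 0.27, adjusted p = 0.39). Without that library it was 0.72 (adjusted p = 0.0084). In Bap1LysM, Rel was at 11.5 to 14.5 CPM in BMMs and 19.9 and 23.6 CPM in preOCs, with a log2 change of 0.61 (SE 0.30, adjusted p = 0.13), called without Bap1flox BMM 1 (0.61, adjusted p = 0.020). Other fits that called Rel higher were that of all 17 libraries, at 0.59 in Bap1flox (adjusted p = 0.049) and 0.83 in Bap1LysM (adjusted p = 0.012), and voomWithQualityWeights in Bap1flox, at 0.71 (adjusted p = 0.00074).

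In the non-canonical arm, both subunits and Traf3 rose in both genotypes and Map3k14 fell in Bap1flox. Nfkb2 (plus strand of chromosome 19, 46304737 to 46312090) stood at 122.1, 118.4 and 117.3 CPM in Bap1flox BMMs and 391.7, 441.9 and 430.2 CPM in preOCs. The log2 change was 1.64 (SE 0.19, adjusted p = 8.1e-05), and in Bap1LysM it was 1.73 (SE 0.20, adjusted p = 0.00026). Relb (minus strand of chromosome 7, 19606217 to 19629438) stood at 58.8, 45.2 and 47.6 CPM in Bap1flox BMMs and 89.4, 106.9 and 112.1 CPM in preOCs. It rose by 0.84 on the log2 scale (SE 0.21, adjusted p = 0.0070) in Bap1flox and by 1.20 (SE 0.23, adjusted p = 0.0033) in Bap1LysM, and kept both calls under every alternative run. The fitted change of Relb was below that of Nfkb2, its partner, in either genotype, a difference that was not tested.

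Traf3 (plus strand of chromosome 12, 111166370 to 111267153) rose with little spread between libraries. It went from 42.4, 44.7 and 41.3 CPM to 129.9, 119.6 and 120.6 CPM in Bap1flox, a log2 change of 1.35 (SE 0.08, adjusted p = 7e-06), and rose by 1.33 (SE 0.09, adjusted p = 2.2e-05) in Bap1LysM. Map3k14 (minus strand of chromosome 11, 103219762 to 103267472), the gene of NIK, went the other way. It stood at 60.4, 57.0 and 58.2 CPM in Bap1flox BMMs and 41.6, 46.1 and 45.4 CPM in preOCs, and the log2 change was -0.58 (SE 0.13, adjusted p = 0.0030). In Bap1LysM it was -0.39 (SE 0.14, adjusted p = 0.053), and 8 of 22 alternatives called it lower, DESeq2 at -0.41 (adjusted p = 0.028) and the fit without both libraries labelled Bap1LysM 1 at -0.54 (adjusted p = 0.047) among them.

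**Figure D2:**
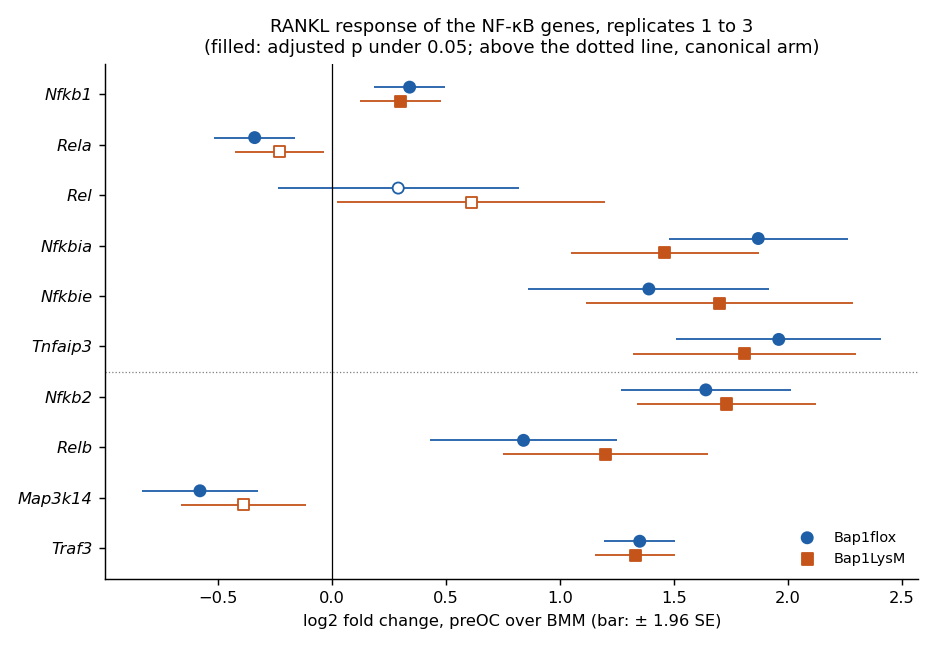
Log2 fold change of preOCs over BMMs (x axis) for each member in replicates 1 to 3, Bap1flox as circles and Bap1LysM as squares. Bars are ± 1.96 SE, filled symbols passed an edgeR adjusted p of 0.05, and the dotted line separates the canonical (above) from the non-canonical arm. Tnfaip3, Nfkbia, Nfkb2, Nfkbie and Traf3 rose by 1.33 to 1.96 on the log2 scale in both genotypes, and Rela and Map3k14 lie left of 0.

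No member was called for a difference between genotypes in its RANKL response, in a fit with 3 against 2 preOC libraries. The interaction was called for 0.0% of the 13637 genes in edgeR, with 1719 genes at an unadjusted p under 0.05, 0 called by voomWithQualityWeights and 113 by DESeq2, none of them a member. At an unadjusted p under 0.05 the count of members was also 0. The nearest estimates were Nfkbia at -0.41 (1.96 SE interval -0.97 to 0.15) and Relb at 0.35 (interval -0.27 to 0.98, adjusted p = 0.67). The interval of Relb reached beyond the size of its own RANKL response in Bap1flox, 0.84. Both genotypes' responses come from separate BMM and preOC libraries, so they share no control.

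Between genotypes, Relb was the one member called in preOCs. In the Bap1flox preOCs 1 to 6, Relb was at 89.4, 106.9, 112.1, 87.4, 83.0 and 64.4 CPM, and in the Bap1LysM preOCs 1, 2, 4, 5 and 6 at 130.3, 168.5, 148.2, 136.1 and 99.4 CPM. The ranges overlapped through Bap1LysM 6, which lay below Bap1flox 2 and 3. Within each library set, however, every Bap1LysM library was above every Bap1flox library, which held for 7.35% of the 12929 genes tested. The means were 90.6 ± 17.2 CPM (SD, n = 6) and 136.5 ± 25.4 CPM (SD, n = 5), and the fitted log2 difference was 0.67 (SE 0.14, adjusted p = 0.0076), 1.60-fold. Over all genes, 7.12% were higher and 8.68% lower at this threshold, and 10.3% had no overlap between genotypes. With upper-quartile factors or library totals alone the share of calls that were higher fell from 45.1% to 33.3% and 31.5%, and Relb stayed called.

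Relb was called in 23 of 24 alternative fits, at log2 differences of 0.59 to 0.77. The exception was replicates 1 to 3 alone, 3 against 2 libraries, where the difference was 0.62 (SE 0.13, adjusted p = 0.18) and edgeR called 0 of the 13611 genes tested, with 2373 at an unadjusted p under 0.05. In replicates 4 to 6 alone it was 0.77 (SE 0.16, adjusted p = 0.0063). Without any single library, the preOC library labelled Bap1LysM 1 among them, the adjusted p lay between 0.0044 and 0.026.

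Rel, Nfkb2 and Traf3 were not called here, and other models called some of them. All 4 non-canonical members had a positive log2 difference (Map3k14 was at -0.01 with library totals alone), with a median of 0.22, against 0.02 in the canonical arm, where 3 of 6 were positive, and -0.01 over all genes. Rel was at 13.2 to 24.2 CPM (median 19.0) in Bap1flox preOCs and 19.9 to 26.4 CPM (median 24.1) in Bap1LysM preOCs, a log2 difference of 0.42 (SE 0.16, adjusted p = 0.096). Nfkb2 was at 303.0 to 441.9 CPM (median 373.5) and 322.8 to 532.6 CPM (median 424.6), a difference of 0.25 (SE 0.12, adjusted p = 0.16). Traf3 was at 91.8 to 129.9 CPM (median 111.8) and 95.7 to 149.3 CPM (median 109.6), a difference of 0.19 (SE 0.12, adjusted p = 0.32). Taken over both library sets, each of these genes overlapped between genotypes. Within replicates 1 to 3 alone, 3 against 2 libraries, Rel, Traf3 and Rela did not overlap in CPM, and none was called there. The share of all genes without overlap in that set is not given here.

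Replicates 4 to 6 were lower than replicates 1 to 3 in Traf3 and Nfkb2 within each genotype, and higher in Rel. With the library set as a term, 4 members were called, where 16.6% of all genes were higher. These were Relb at 0.71 (SE 0.12, adjusted p = 0.0011), Rel at 0.39 (SE 0.10, adjusted p = 0.011), Nfkb2 at 0.28 (SE 0.08, adjusted p = 0.019) and Traf3 at 0.21 (SE 0.07, adjusted p = 0.041). The fit paired by replicate number, where 16.1% of all genes were higher, gave the same members, with Rel at 0.44 (adjusted p = 0.018), Nfkb2 at 0.28 (adjusted p = 0.016) and Traf3 at 0.19 (adjusted p = 0.046). Under voomWithQualityWeights, where 26.8% of all genes were higher, Rel was at 0.54 (adjusted p = 0.0027) and Nfkb1 at 0.16 (adjusted p = 0.029). Nfkb2 was at 0.21 (adjusted p = 0.058) and Traf3 at 0.06 (adjusted p = 0.53) in that fit. DESeq2, where 22.6% of all genes were called in either direction, called Relb and also Rel, at 0.44 (adjusted p = 0.046).

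**Figure D3:**
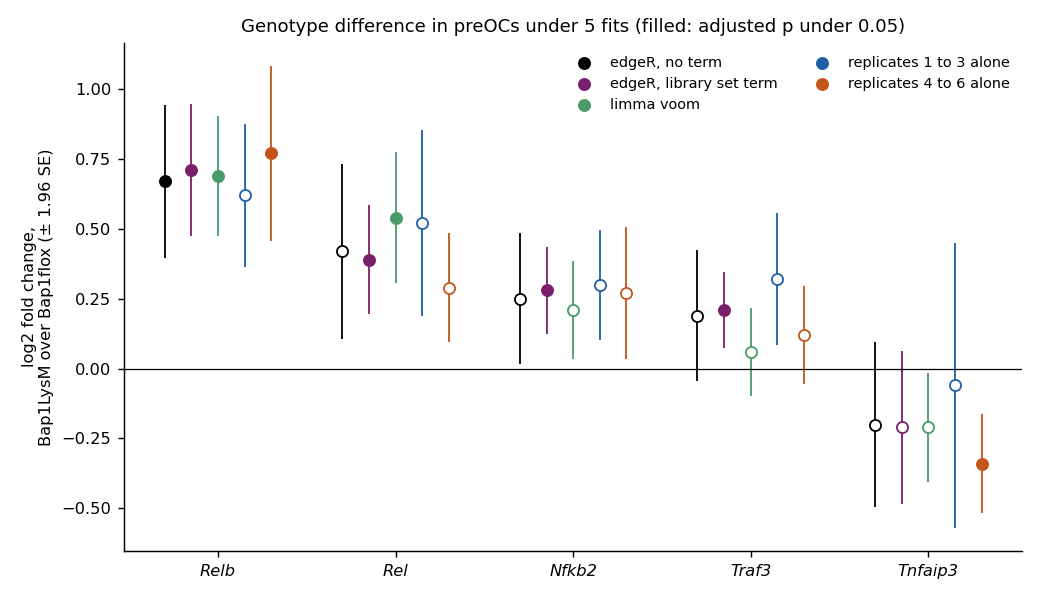
Log2 difference of Bap1LysM over Bap1flox preOCs (y axis) for 5 members under 5 fits. Bars are ± 1.96 SE and filled symbols passed an adjusted p of 0.05. Relb lies at 0.62 to 0.77 and is called in each plotted fit but that of replicates 1 to 3 alone.

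The inhibitors and Map3k14 showed no call between genotypes in preOCs. Nfkbia was at 276.5 to 428.0 CPM (median 377.5) in Bap1flox and 283.3 to 434.1 CPM (median 310.5) in Bap1LysM, with a log2 difference of -0.07 (1.96 SE interval -0.29 to 0.15). Nfkbie was at 62.8 to 107.3 CPM and 47.0 to 146.2 CPM, and its difference of 0.08 (interval -0.42 to 0.59) became -0.26 without the library labelled Bap1LysM 1. Tnfaip3 was at 66.4 to 112.0 CPM and 57.4 to 101.0 CPM, a difference of -0.20 (interval -0.49 to 0.08). In replicates 4 to 6 Tnfaip3 was at 87.4 to 112.0 CPM in Bap1flox against 74.2 to 78.2 CPM in Bap1LysM. The fit of these libraries alone, where 18.0% of all genes were lower, called it lower at -0.34 (SE 0.09, adjusted p = 0.021). Map3k14 at 0.07 (interval -0.11 to 0.26), Nfkb1 at 0.11 (interval -0.04 to 0.25) and Rela at -0.03 (interval -0.19 to 0.12) lay near 0.

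In BMMs, which had not received RANKL, Traf3 was the one member called between genotypes. It was at 42.4, 44.7 and 41.3 CPM in Bap1flox and 49.5, 56.6 and 55.0 CPM in Bap1LysM, with no overlap, a log2 difference of 0.34 (SE 0.07, adjusted p = 0.046). Over all 13028 genes, 1.31% were higher, 4.01% lower and 32.6% without overlap. Traf3 kept its direction in all 16 alternatives, at 0.31 to 0.37, but its call in only 6, and lost it without any single library of the 6 (adjusted p = 0.068 to 0.21). Paired by replicate number it was at 0.34 (adjusted p = 0.037).

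Relb in BMMs was at 58.8, 45.2 and 47.6 CPM in Bap1flox and 48.7, 48.3 and 84.5 CPM in Bap1LysM, a log2 difference of 0.28 (1.96 SE interval -0.19 to 0.74). Bap1LysM BMM 3 was the highest library, and without it the value was -0.04. The same library carried Nfkb2 at 188.3 CPM against 103.0 and 118.1 CPM in its group, and Nfkbie at 48.8 CPM against 28.2 and 25.7 CPM, so the positive differences of Nfkb2 (0.21) and Nfkbie (0.11) became -0.09 and -0.23 without it. The median over the members was 0.17 with all libraries and -0.01 without Bap1LysM BMM 3, against -0.01 over all genes. Nfkbia was at 105.3, 95.7 and 97.2 CPM in Bap1flox and 91.7, 107.8 and 162.0 CPM in Bap1LysM, and its uncalled difference of 0.29 (1.96 SE interval -0.09 to 0.68) became 0.02 without that library. Nfkb1 at 0.15, Rel at 0.20, Tnfaip3 at 0.10, Rela at -0.10 and Map3k14 at -0.16 were not called.

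**Figure D4:**
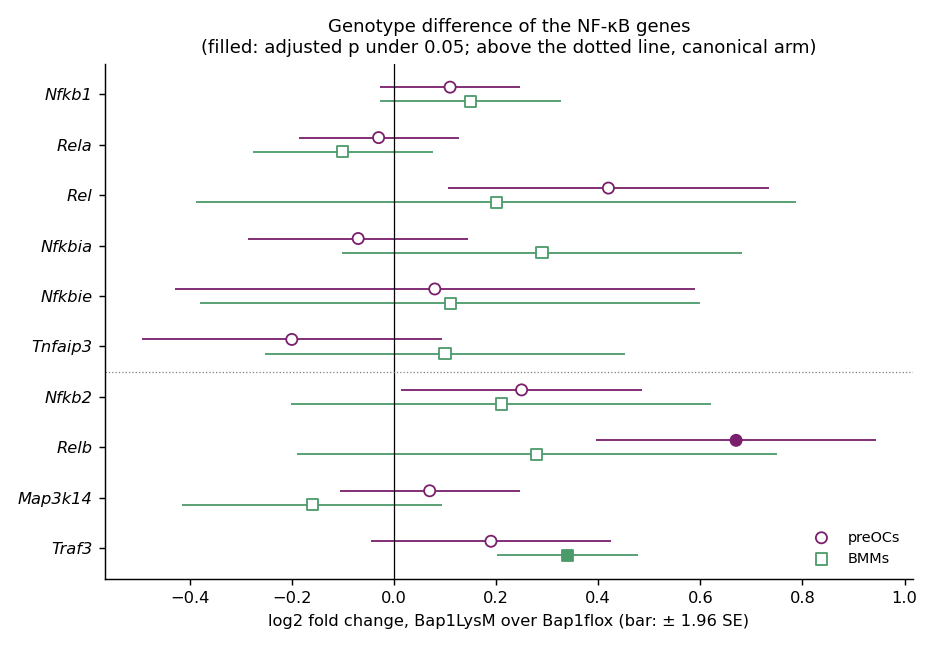
Log2 difference of Bap1LysM over Bap1flox (x axis) for each member in preOCs (circles) and BMMs (squares). Bars are ± 1.96 SE and filled symbols passed an edgeR adjusted p of 0.05. Relb in preOCs at 0.67 and Traf3 in BMMs at 0.34 are the filled symbols.

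The balance of the arms was also read within each library, as the RPKM ratio of a non-canonical subunit to its canonical relative, which does not depend on library scaling. Of 3 ratios computed, Relb over Rela separated the genotypes in preOCs and the other two did not. Relb over Rela was 0.169 to 0.222 in Bap1flox BMMs and 0.208 to 0.311 in Bap1LysM BMMs. In preOCs it was 0.322 to 0.481 (mean 0.400 ± 0.0593, SD, n = 6) in Bap1flox and 0.547 to 0.778 (mean 0.655 ± 0.0987, SD, n = 5) in Bap1LysM, so that here the genotypes did not overlap across the library sets. Nfkb2 over Nfkb1 was 1.12 to 1.24 in Bap1flox BMMs, 0.992 to 1.65 in Bap1LysM BMMs, 2.12 to 3.06 in Bap1flox preOCs and 2.10 to 3.41 in Bap1LysM preOCs. Both these ratios were higher in preOCs than in BMMs in every library of either genotype. Relb over Rel was not, at 2.41 to 4.03 in Bap1flox BMMs and 2.14 to 4.89 in Bap1flox preOCs, and at 2.43 to 5.29 and 2.71 to 5.14 in Bap1LysM. These ratios were chosen after the values were seen and were not tested, and no share of other gene pairs was computed. Rela differed by -0.03 on the log2 scale between genotypes in preOCs, so its ratio largely repeats the Relb difference given above.

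**Figure D5:**
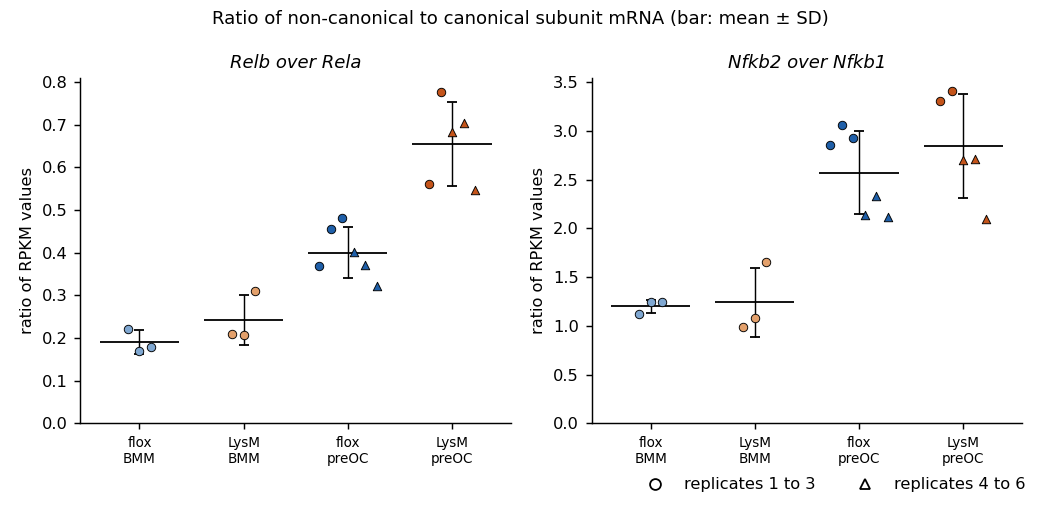
Ratio of RPKM values (y axis, from 0) of Relb to Rela (left) and Nfkb2 to Nfkb1 (right) in each library, with group mean ± SD. Circles are replicates 1 to 3 and triangles replicates 4 to 6. Relb over Rela separates Bap1LysM preOCs (at least 0.547) from Bap1flox preOCs (at most 0.481), whereas Nfkb2 over Nfkb1 overlaps.

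Other genes of the pathway moved with RANKL in both directions, where 29.4% of all genes rose and 28.7% fell in Bap1flox and 21.2% and 17.7% in Bap1LysM. Of 29 genes of the IKK complex and the receptor-proximal machinery, 6 rose and 10 fell in Bap1flox, with a median of -0.09. The adaptor Traf1 rose by 5.36 (SE 0.26, adjusted p = 3.5e-06), from 5.45 ± 0.864 CPM (SD, n = 3) in BMMs to 174.7 to 269.2 CPM in preOCs 1 to 6. Malt1, a protease and scaffold, rose by 2.40, Birc3, which with Traf2 and Traf3 forms the complex that degrades NIK, by 1.46 and Traf2 by 1.28, while the IKK-related kinase Ikbke was at -1.13 and the kinase Irak4 at -0.83. In Bap1LysM, 10 of the 29 rose and 5 fell (Irak4, Card9, Ripk1, Sharpin and Rbck1, at -0.56 to -0.35). The 10 were led by Traf1 at 6.12, Malt1 at 2.45 and Birc3 at 1.85, followed by Traf5 at 1.33, Traf2 at 1.24 and Birc2 at 0.99. Without both libraries labelled Bap1LysM 1, 9 rose and 8 fell, with Ikbke at -1.12, Rnf31 at -0.45 and Ikbkb at -0.38 added to those that fell and Irak2 at 0.21 (adjusted p = 0.19) no longer called.

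Of 19 further IκB-family and feedback genes, 6 rose and 5 fell in Bap1flox, and 8 rose and 1 fell in Bap1LysM. Bcl3, a nuclear IκB protein that binds p52 and p50 dimers, rose by 1.20 (SE 0.21, adjusted p = 0.00078) and 1.49 (SE 0.22, adjusted p = 0.00090). Nfkbid, another nuclear IκB gene, rose by 1.42 and 1.34, and Tnip1, whose product binds A20, by 1.33 and 1.57. Socs3, an inhibitor of cytokine signalling, rose by 1.07 (SE 0.34, adjusted p = 0.022) and 1.68 (SE 0.38, adjusted p = 0.0065). In Bap1flox the largest rise was that of Tnip3, related to Tnip1, at 1.85 (SE 0.42, adjusted p = 0.0039). The deubiquitinase gene Otud7b rose by 0.86 in Bap1flox and 1.24 in Bap1LysM, and Trib3 rose by 0.94 in Bap1LysM. Irak3, an inhibitor of Toll-like receptor signalling, was at -1.39 in Bap1flox, and at -0.87 it was the 1 gene of the list that fell in Bap1LysM. Without both libraries labelled Bap1LysM 1, 6 rose and 2 fell there, with Trib3 at 0.62 (adjusted p = 0.16) and N4bp1 at 0.28 (adjusted p = 0.26) no longer called and Pdlim2 lower at -1.39.

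Of the pathway's receptors and ligands, 15 of 18 were tested, and 1 rose and 8 fell with RANKL in Bap1flox. The one that rose was Tnfrsf11a, the gene of RANK, at 1.36 (SE 0.16, adjusted p = 0.00011), while the BAFF gene Tnfsf13b was at -1.88, Tnfsf14 at -1.78, Tnfrsf13b at -1.52, Tnfsf12 at -1.21 and Tnfrsf1b at -1.06. In Bap1LysM, 3 rose (Il1r1 at 2.06, Ltb at 1.58 and Tnfrsf11a at 0.87) and 4 fell (Tnfrsf13b at -1.71, Tnfsf12 at -0.89, Tnfrsf1a at -0.70 and Ltbr at -0.28). Of 21 tested target genes, 9 rose and 4 fell in Bap1flox, with Mmp9 at 7.10, Nos2 at 6.11, Ccl22 at 3.48, Il1rn at 3.38 and Cxcl10 at 2.90, and with the early response gene Ier3 at -2.32. In Bap1LysM 9 rose and Ier3 alone fell, at -1.77, with Mmp9 at 6.20, Nos2 at 5.68, Ccl22 at 4.59, Il1rn at 4.18, Cxcl10 at 2.58 and Nfatc1 at 2.38. Without both libraries labelled Bap1LysM 1, Cxcl10 was at 0.40 (adjusted p = 0.66) and Ptgs2 at 0.74 (adjusted p = 0.24), so that 7 targets rose, and 2 fell with Bcl2l1 at -1.82. Of the receptors and ligands 3 rose and 5 fell, with Tlr4 added at -1.06.

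Between genotypes in preOCs, these lists are read beside the 7.12% higher and 8.68% lower over all genes, and the IKK and feedback counts lie near those shares. Of the 29 IKK and receptor-proximal genes, 3 were higher (Birc2 at 0.81, adjusted p = 0.018, Ikbke at 0.59 and Irak2 at 0.26) and none lower in edgeR, against 20 called in either direction by voomWithQualityWeights, where 54.9% of all genes were called, and 8 by DESeq2, where 22.6% were. Of the 19 feedback genes, 2 were higher (Zc3h12a, a ribonuclease, at 0.53 and Tnip2 at 0.32) and 1 lower (Nfkbib, the gene of IκBβ, at -0.39). Of 14 tested receptors and ligands, 5 were higher and 1 lower. Among them were Ltb, the lymphotoxin-β ligand, at 1.30 (SE 0.34, adjusted p = 0.023), CD40 (Cd40) at 1.28 (SE 0.21, adjusted p = 0.0029), the TNF receptor gene Tnfrsf1b at 0.83, Tlr2 at 0.69 and RANK itself (Tnfrsf11a) at 0.33, while Tnfsf12 was at -0.53. The levels were low for Ltb, at 0.552 to 1.61 CPM in Bap1flox and 1.51 to 4.29 CPM in Bap1LysM, and modest for Cd40, at 4.56 to 7.69 and 10.3 to 22.5 CPM. Without the preOC library labelled Bap1LysM 1, where 3085 of all genes were called against 2043 with it, 6 IKK genes were higher (Traf5 at 0.56, Cyld at 0.38 and Irak4 at 0.51 added) and Rnf31 lower at -0.47. Bcl3 was then higher at 0.41 and Pdlim2 lower at -0.70, while Tnip2 at 0.26 (adjusted p = 0.059) and Tlr2 at 0.59 (adjusted p = 0.071) were no longer called.

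Of 21 tested target genes, 4 were higher in Bap1LysM preOCs and none lower in edgeR, against 11 called in either direction by voomWithQualityWeights and 6 by DESeq2, at the same shares of 54.9% and 22.6% over all genes. The chemokine gene Ccl22 was at 0.956 to 1.90 CPM in Bap1flox and 4.98 to 12.4 CPM in Bap1LysM, a log2 difference of 2.56 (SE 0.24, adjusted p = 0.00034). The adhesion molecule genes Vcam1 and Icam1 differed by 1.62 (SE 0.31, adjusted p = 0.0055) and 0.60 (SE 0.11, adjusted p = 0.0056), and the superoxide dismutase gene Sod2 by 0.41. Without the preOC library labelled Bap1LysM 1, 4 were higher and 2 lower (Cxcl10 at -1.46 and Gadd45b at -0.33). Medians of the log2 difference were 0.19 for the IKK list, 0.16 for the feedback genes, 0.35 for receptors and ligands and 0.17 for the targets, against -0.01 over all genes. In BMMs, edgeR called 0 of the 29 IKK genes, with 5 at an unadjusted p under 0.05 and 1 called by voomWithQualityWeights and by DESeq2. Over all genes 1.31% were higher and 4.01% lower in BMMs, and the 693 calls became 4 to 369 when any 1 library other than Bap1LysM BMM 3 was left out, and 756 without that library. Of the 19 feedback genes 1 was higher and 2 lower, and of 14 tested receptors and ligands 2 were higher and 2 lower. These were Nfkbid at 0.57 with Irak3 at -0.81 and Otud7b at -0.51 among the feedback genes, and Tnf at 1.03 and Tnfrsf11a at 0.84 with Tnfsf14 at -1.54 and Tnfsf12 at -0.79 among receptors and ligands. Without the BMM library labelled Bap1LysM 1, where 369 of all genes were called, Tnfsf14 and Tnfsf12 were called and the other 5 were not (adjusted p = 0.054 to 0.10). Of the 18 target genes tested in BMMs 0 were called, with 4 at an unadjusted p under 0.05 and 2 called by voomWithQualityWeights and by DESeq2.

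Markers of other blood cells moved with genotype in preOCs and stand beside these results. The 8 dendritic cell markers, a cell type in which Relb is highly expressed, summed to 3.43 to 6.15 CPM in Bap1flox and 5.81 to 11.7 CPM in Bap1LysM, and both markers that could be tested were higher (Ccr7 at 2.07 and Zbtb46 at 1.14), with 3 of the 8 under 0.5 CPM in every Bap1LysM library. The 8 neutrophil markers summed to 66.8 to 181.8 CPM and 165.8 to 582.0 CPM, with 6 of 7 tested higher. The 7 B and plasma cell markers summed to 7.69 to 17.1 and 10.8 to 45.4 CPM, with Jchain and Ighm higher. In BMMs these B and plasma cell markers summed to 95.0 to 116.7 CPM in Bap1flox and 36.0 to 109.9 CPM in Bap1LysM, where Jchain was higher at 3.07 and Cd79b lower at -1.05, beside the call of Traf3. With RANKL, Ighm and Cd79b fell, at -3.62 and -1.76 in Bap1flox and at -3.14 and -1.97 in Bap1LysM. Of 8 macrophage markers, 7 fell with RANKL in Bap1flox and 6 in Bap1LysM. Between the genotypes of preOCs, 2 of them were higher in Bap1LysM (Mertk at 1.26 and Csf1r at 0.41) and none lower, with a median of 0.30. Of 10 osteoclast markers, 1 was lower in Bap1LysM preOCs (Dcstamp at -0.69) and none higher, with a median of 0.23. Without the preOC library labelled Bap1LysM 1, Lyz2 at -8.12 and Cd14 at -0.92 were also lower among the macrophage markers, Calcr at 0.81 and Oscar at 0.65 higher among the osteoclast markers, and all 7 tested neutrophil markers higher. Without the BMM library labelled Bap1LysM 1, Cd79b was at -1.08 (adjusted p = 0.073) between genotypes and Lyz2 lower at -9.31, and without both, all 8 macrophage markers fell with RANKL in Bap1LysM. The mitochondrial share of counts was also higher in Bap1LysM in each of the 5 same-numbered preOC pairs, at 0.667% and 1.021%, 0.481% and 1.074%, 2.844% and 3.383%, 2.364% and 3.714%, and 3.639% and 5.264%. The part of any of these in the differences of Relb and Traf3 or in the RANKL response was not tested. Fewer cells of a type and less RNA per cell cannot be told apart in these bulk libraries. Markers of T and NK cells summed to at most 0.424 CPM and those of erythroid cells to at most 0.660 CPM in any library, and stromal markers to 93.1 to 2556 CPM over all libraries, with 0 of 5 tested called by edgeR between genotypes in preOCs (1 at an unadjusted p under 0.05, and 1 by voomWithQualityWeights and by DESeq2).

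The genes whose log2 CPM followed each member most closely across the 17 libraries, among 12422 others, were named as a description. For Relb these were Psd (Pearson r = 0.959), Bcl3 (0.926) and Cd82 (0.919), and within the 11 preOC libraries alone the values were 0.923, 0.932 and 0.879. For Nfkb2 they were Mvp (0.984), Bcl3 (0.981) and Nfkbia (0.976), of which Bcl3 held 0.866 and Nfkbia 0.404 within preOCs. Nfkbia was most like Mvp (0.984), Cdc42ep2 (0.978) and Nfkb2 (0.976). Tnfaip3 was most like Myo10 (0.991), Ecsit (0.988) and Chst11 (0.987), and Nfkbie, with the weakest likeness, most like Tnfrsf23 (0.919), Slc13a3 (0.907) and Agpat4 (0.902).

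Nfkb1 was most like Shtn1 (0.981), Sde2 (0.969) and Efl1 (0.969), Rela most like Retreg2 (0.962), Cnppd1 (0.960) and Lsm10 (0.957), and Rel most like Ralgapb (0.965), Mettl4 (0.958) and Zfp809 (0.957). Map3k14 was most like Rnf166 (0.965), Cnppd1 (0.964) and Unc93b1 (0.958), so that Cnppd1 stood in the lists of both members that fell in Bap1flox. Traf3 was most like Dhx33 (0.970), Timm8a1 (0.966) and Nf2 (0.965). The points share their stage and their library set, and the values within the 11 preOC libraries alone ran from 0.331 (Nfkbia with Cdc42ep2) to 0.966 (Nfkb1 with Efl1). Psd lies on the strand opposite to Nfkb2 and overlaps its end by 299 bases in GENCODE M21, and was at 11.7 to 67.1 CPM. In the gene model that was counted, Nfkb2 ends at 46312090, against 46312385 in GENCODE M21, so the overlap in counting may be smaller and was not measured. The use of strand in counting is not stated, and reads of the overlap could not be assigned to either gene here.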

How the data were processed

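The 17 libraries were poly(A)-selected RNA-seq of 4 groups (3 Bap1flox and 3 Bap1LysM BMM, 6 Bap1flox and 5 Bap1LysM preOC libraries). Per the labels and the study's methods, the authors aligned reads with STAR 2.5.1a to Ensembl release 76 (GRCm38) and assigned reads to genes by featureCounts 1.4.6-p5, keeping those with a unique alignment and no ambiguity. The use of strand is not stated. The deposited tables hold raw counts, CPM and RPKM per gene and library. The CPM are counts over the library total and the RPKM are CPM per kilobase, as recomputed from the deposited counts. Tests used the counts, levels of a gene the CPM, and comparisons between genes the RPKM. Intervals are the estimate ± 1.96 SE.

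Gene IDs were matched to GENCODE M21 symbols (97.5% of 41388), and 355 rRNA genes were left out. Genes above 1 CPM in at least 4 preOC or 2 BMM libraries were kept. edgeR 4.0.16 (TMM, quasi-likelihood F test, Benjamini-Hochberg adjusted p, threshold 0.05, over all genes tested) compared genotypes in the 11 preOC and the 6 BMM libraries. A 4-group model of the 11 libraries numbered 1 to 3 gave the RANKL response and its interaction with genotype. SE is the absolute log2 fold change divided by the square root of F. The code was tested on simulated data. Alternatives were limma 3.58.1 voomWithQualityWeights, DESeq2 1.42.0, other scalings and filters, a library set term, each set alone, a replicate block, and leaving out libraries. R 4.3.3 and Python 3.11.15 were used.

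The study describes the preOC samples as biologically independent, and the labels do not say whether replicates came from separate mice. For the BMM libraries p-values then measure only the spread between libraries, which may be technical. Deviations from the group means correlated between same-numbered libraries of the 2 genotypes (0.39 to 0.74 in preOCs, 0.37 to 0.52 in BMMs). Fits blocked by number were therefore run, and blocked values stand beside the results they change. Taken within the library sets, the preOC values were -0.16 to 0.42, and -0.16 to 0.06 for the numbers 4 to 6. Differently numbered libraries were not compared, so these values cannot show that the numbers pair the libraries. Between BMMs and preOCs within replicates 1 to 3, which the RANKL comparisons use, all 5 pairs were at 0.22 to 0.55. A fit blocked by number was also run there, with the same limit. With deviations from the mean of all Bap1flox preOC libraries, the pair numbered 1 was at -0.26.

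The members and lists were chosen with earlier results of these data known. All members were named, and of each pathway list up to 6 called genes per comparison with the largest absolute log2 fold change. The genes of a count of 5 or fewer in a list were also named in places after their values were seen (Irak3, Ltbr, Ier3 and the IKK genes that fell in Bap1LysM). For each member the 3 genes with the highest Pearson r of log2 CPM (prior count 2) over the 17 libraries were named. Promoters are RefSeq windows of GRCm38.p6. Those of Nfkb1 and Relb were not used here.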

Additional observations from a re-analysis of the deposited data

Results flagged for a closer look

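Nfkbia in Bap1LysM preOC 2 was at 434.1 CPM, above 283.3 to 317.0 CPM in the other 4 Bap1LysM preOC libraries. The gap to the next library was 0.776 of the whole range, past Dixon's critical value of 0.71 for 5 samples. Among the 20 member and group values examined this was the only one, where chance gives about 1 in 20. The group holds both library sets. In Bap1flox preOCs, Nfkbia was at 397.6 to 428.0 CPM in replicates 1 to 3 and 276.5 to 357.5 CPM in replicates 4 to 6, so that Bap1LysM preOC 2 lay near its own set, and of replicates 1 to 3 the library labelled Bap1LysM 1 was lowest at 283.3 CPM.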

How the results depend on the processing

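Of 1060 recomputed log2 values of the members, 982 kept direction and call, 45 changed call and 33 changed sign, none of the latter called and none above 0.27 in size. Over the alternatives, 0 to 4 members were called between genotypes in preOCs, 0 to 1 in BMMs, 8 to 10 for the RANKL response in Bap1flox, 6 to 10 in Bap1LysM and 0 for the interaction. For genotype in preOCs, 1 member and 2043 genes were called, against 3 and 7099 with voomWithQualityWeights, 2 members with DESeq2, 4 and 4349 with the library set term, 4 and 4236 with the replicate block, 0 and 0 in library set 1 alone (2373 genes at an unadjusted p under 0.05) and 2 and 4304 in library set 2 alone. For genotype in BMMs, 1 member was called, against 0 with upper-quartile factors, no filter, all 17 libraries or library totals only, the last chosen after seeing the data. There 693 genes were called, against 1772 with voomWithQualityWeights, 2065 with DESeq2 and 2107 with the replicate block. The RANKL response in Bap1LysM had 5308 calls, against 2934 with voomWithQualityWeights. The interaction had 0 (1719 at an unadjusted p under 0.05), against 113 with DESeq2 and 288 with all 17 libraries. The paired fit changed no other count of calls by over 1.5 times.

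Leaving out each library gave 1071 to 3085 genes in preOCs, lowest without Bap1LysM 5 (1071) or 4 (1074), 1333 without Bap1flox 5, and highest without Bap1LysM 1. In BMMs it gave 0 members and 4 to 756 genes (4 without Bap1flox 3, 7 without Bap1flox 2, 298 without Bap1flox 1, 84 without Bap1LysM 2 and 369 without Bap1LysM 1). The RANKL response in Bap1LysM gave 3146 (without preOC 2) to 6117, and the interaction 0 to 119 (119 without Bap1LysM preOC 2, 2 without preOC 1).

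Signs changed for uncalled members. In preOCs these were Rela (0.02) in set 1, Nfkbia (0.02) and Nfkbie (-0.19) in set 2, Nfkbie (-0.27) with voomWithQualityWeights, and Nfkbie (-0.01) and Map3k14 (-0.01) with library totals. In BMMs it was Tnfaip3 (-0.07) with voomWithQualityWeights. For the interaction these were Rel (-0.07) with voomWithQualityWeights, Nfkbie (-0.01) with all 17 libraries, and Nfkb1 (0.01), Rela (-0.01), Nfkbie (-0.27) and Tnfaip3 (0.14) without both Bap1LysM libraries numbered 1. Ranges over left-out libraries that crossed 0 were, in preOCs, Rela -0.09 to 0.01 and Nfkbie -0.26 to 0.23. In BMMs they were Rel -0.01 to 0.62, Nfkbie -0.23 to 0.30, Tnfaip3 -0.08 to 0.23, Nfkb2 -0.09 to 0.35 and Relb -0.04 to 0.44. For the interaction they were Nfkb1 -0.12 to 0.01, Rela 0.00 to 0.23, Rel -0.11 to 0.54, Nfkbie -0.17 to 0.67, Tnfaip3 -0.53 to 0.15, Nfkb2 -0.05 to 0.39 and Traf3 -0.15 to 0.09. The cause was not tested. The 3 against 2 preOC libraries of set 1 limit what that set alone and the interaction can show.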
